A study of Meleagris gallopavo with 8 samples.

Results

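The genes described here are the heat shock proteins, their J-domain cochaperones (the DNAJ families) and the BAG nucleotide exchange factors of turkey breast muscle. They were chosen by name from the transcript annotation that the authors assembled: gene names that start with HSPA, HSPB, HSPD, HSPE or HSPH and a digit, with HSP90, with DNAJ, or with BAG and a digit, without HSPA5, and with at least 1 assembled transcript that matched, lay within or shared a splice junction with a reference transcript of that gene. The rule found 47 genes of 7360 named genes that have such a transcript. Of 48 names that fit the pattern, 1 was left out, DNAJC28, whose transcripts overlapped the reference without sharing a junction.

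The study compared pectoralis major (breast) muscle of turkeys of the random-bred line RBC2, all 22 weeks old and all raised and slaughtered alike, with no treatment that separates the groups. There were 4 samples of normal meat, which had taken up much marinade at 24 h after slaughter, and 4 of PSE (pale, soft and exudative) meat, which had taken up little. The groups are therefore defined by a property of the meat after death, and the labels do not say which birds the samples came from beyond a replicate number. A table of counts per locus, whose 8 columns carry no sample names, was not used here. No expression level and no difference between PSE and normal muscle is given, library depth stays unknown, and the values below describe which transcripts were assembled and how they are built.

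Molecular chaperones bind proteins that are unfolded or only partly folded and keep them from clumping. HSP70 proteins do this in cycles of ATP use, in which J-domain proteins deliver the client and stimulate ATP hydrolysis, and nucleotide exchange factors of the HSP110 and BAG families reset the cycle by releasing ADP. HSP90 takes over partly folded clients, chaperonins such as HSPD1 enclose them, and small heat shock proteins hold them without ATP. In striated muscle this machinery maintains the contractile filaments and the Z-disc, and many of its genes are induced by heat and exercise.

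All HSPA symbols that the RefSeq table of the turkey lists under the same pattern were assembled, 8 of 8, and so were all DNAJA symbols, 4 of 4. Of DNAJB 7 of 11 were assembled, of DNAJC 17 of 24, of BAG 4 of 5, of HSPB 2 of 6 and of HSP90 1 of 3. Over the families 44 of 62 RefSeq symbols were found. A further 3 genes, HSPH1, HSPB8 and DNAJC3, were assembled under names that this table lacks. How many of all RefSeq symbols were assembled is not given here, so these shares cannot be set against a usual rate. The 18 symbols without a qualifying transcript were HSP90AB1, HSP90B1, HSPB2, HSPB3, HSPB9, HSPB11, BAG1, DNAJB1, DNAJB6, DNAJB8, DNAJB13, DNAJC5B, DNAJC12, DNAJC14, DNAJC19, DNAJC22, DNAJC25 and DNAJC28. Among them are the constitutive cytosolic HSP90 (HSP90AB1), the HSP90 of the endoplasmic reticulum (HSP90B1), the heat-inducible DNAJB1 and DNAJB6, whose human counterpart is mutated in a limb-girdle muscular dystrophy. A gene may be present under another name or in a locus without one, so an absent symbol is no measure of absent RNA.

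The 47 genes had 85 transcripts that qualified. Of these, 25 were exact matches, with the same chain of introns as a reference transcript. Another 34 were variants, which have at least 1 junction of the reference and another structure otherwise, and 26 were contained fragments that cover part of one. An exact match was found for 25 of the 47 genes (53.2%), against 2824 of the 7313 other named genes (38.6%). A variant was found for 25 genes (53.2%), against 52.0% of the others. In 4 genes (8.51%) nothing but contained fragments was assembled, against 20.1% of the others: HSP90AA1, HSPA12A, HSPA13 and DNAJA2. These shares describe the list, and none of the differences was tested. The annotation credits each transcript to 1 sample, even where several samples held it, and normal replicate 1 holds most of the members' transcripts. Leaving out the transcripts credited to that sample therefore does not show what the other samples held. Without the transcripts credited to normal replicate 1, 21 of the 47 genes (44.7%) had a qualifying transcript, against 61.8% of the other named genes. A variant was left for 10 genes (21.3%), against 33.15% of the others. An exact match was then found for 7 genes (14.9%), against 13.9% of the other named genes.

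**Figure D1:**
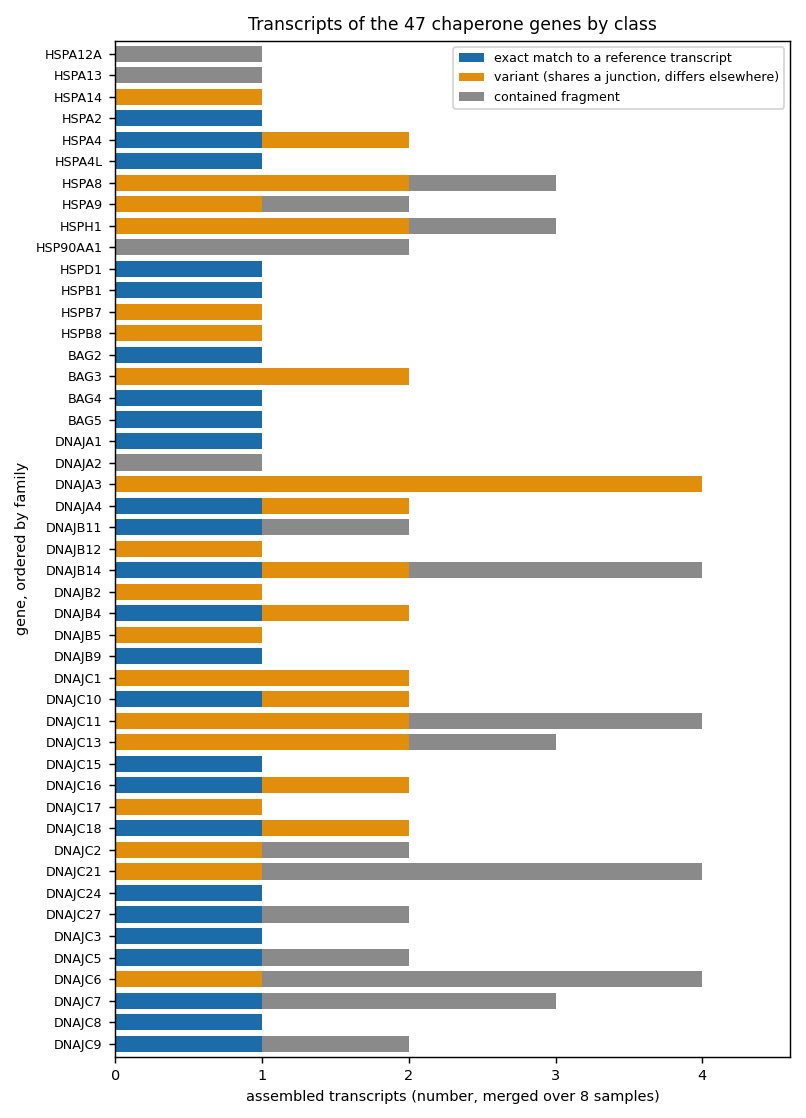
Number of assembled transcripts for each of the 47 genes (horizontal axis), merged over the 8 samples, with bars split into exact matches, variants and contained fragments. The largest number is 4, reached by 5 DNAJ genes, and the bars of HSP90AA1, HSPA12A, HSPA13 and DNAJA2 hold contained fragments alone.

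HSP90AA1, the stress-inducible cytosolic HSP90, was assembled in 2 pieces on the minus strand of chromosome 5, between positions 51553287 and 51560142. The upstream piece had 4 exons and 1268 bases and the downstream piece 7 exons and 2305 bases, and 136 bases of genome between them were in neither. Both pieces lay inside 1 reference transcript and both were credited to normal replicate 1.

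Of the HSP70 genes, HSPA8, the constitutive cytosolic HSC70, was assembled on the plus strand of chromosome 26 from 3255911 to 3261309. Its 3 transcripts were 2 variants of 8 and 9 exons and a fragment of 4 exons. The variant of 8 exons kept an intron of 95 bases that the other 2 transcripts removed, and those 2 placed the intron at 3257560 to 3257654 and at 3257562 to 3257656, which are 2 bases apart. A length of 95 bases is not a multiple of 3, so keeping the intron would shift a reading frame that runs through it. HSPA9, the HSP70 of the mitochondrial matrix (mortalin), came as an upstream variant of 8 exons and 967 bases and a downstream fragment of 7 exons and 1354 bases, 103 bases apart, on chromosome 15 between 2111305 and 2131926.

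HSPA2, which in mammals is most abundant in the testis, was 1 of 2 genes of the list with a single exon (2593 bases). HSPA14, which in mammals works on ribosomes together with the J protein DNAJC2, had 1 variant of 12 exons. HSPA13, a microsome-associated relative, had a fragment of 3 exons and 583 bases, and HSPA12A, a distant relative, a fragment of 2 exons and 1038 bases.

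The HSP110 genes HSPA4, HSPA4L and HSPH1 encode exchange factors for HSP70 and had the longest exon chains among the heat shock proteins. HSPA4 and HSPA4L each had an exact match of 18 exons, with 3708 and 5807 bases of exon. The second transcript of HSPA4 used an acceptor site 9 bases away, at 17039197 to 17039205 on chromosome 15, and began 251 bases further downstream. HSPH1 (HSP105), on chromosome 1 from 182484868 to 182507051, had 2 variants and 1 fragment. One variant of 17 exons held an exon of 132 bases, at 182501663 to 182501794, which the other skipped. The exon length equals 44 codons, so including or skipping it would leave a reading frame intact. In human and mouse, the alpha and beta forms of HSP105 differ by an internal segment that is spliced in or out, and whether the turkey exon is its counterpart was not tested.

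HSPD1, the HSP60 chaperonin of mitochondria, had 1 exact match of 11 exons and 4501 bases on the minus strand of chromosome 7. No gene named HSPE1, the lid of that chaperonin, was assembled, and the RefSeq table lists no symbol of that family. The small heat shock proteins were compact and alike in their qualifying transcripts. HSPB1 (HSP27), HSPB7, which is abundant in heart and skeletal muscle of mammals, and HSPB8, the partner of BAG3, each had 1 transcript of 3 exons, with 936, 1377 and 815 bases of exon and spans of 2118, 1971 and 2269 bases. HSPB1 was an exact match, and HSPB7 and HSPB8 were variants. With transcripts of other classes at the locus included, HSPB8 covered 1545 bases, while HSPB1 and HSPB7 kept the same length.

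Of the BAG genes, BAG3, which with HSPB8 directs damaged Z-disc proteins to autophagy in muscle, had 2 variants of 3 exons whose starts and ends were the same. They differed by 51 bases at the end of the second exon, at 33151573 to 33151623 on chromosome 8, a difference of 17 codons in length. BAG2, which inhibits the ubiquitin ligase CHIP, and BAG4, known as silencer of death domains, had exact matches of 2 and 5 exons. BAG5, which carries several BAG domains, was the other gene with a single exon (2208 bases).

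The DNAJA genes encode J proteins of the original bacterial type. DNAJA1 and DNAJA2, both cytosolic, had 1 transcript each, an exact match of 6 exons and a fragment of 7 exons. DNAJA3, a J protein of mitochondria, had 4 variants and no exact match. They came in 2 pairs, 1 credited to normal replicate 1 and 1 to normal replicate 3, and in each pair the members differed by a cassette exon of 104 bases. The pair of replicate 1 also held an exon of 111 bases, after an exon of 133 bases that measured 129 in the other pair, and the pairs ended 508 bases apart. DNAJA4 had an exact match of 7 exons and a variant that skipped an exon of 181 bases, at 3076244 to 3076424 on chromosome 12.

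Of the DNAJB genes, DNAJB9 and DNAJB11, both J proteins of the endoplasmic reticulum, had exact matches of 2 and 10 exons. DNAJB12 and DNAJB14, which sit in the membrane of that compartment, had a variant of 8 exons and an exact match of 7 exons. The variant of DNAJB14 had the same 7 exons with 1 intron of 578 bases moved by 4 bases. DNAJB4, a cytosolic J protein whose loss causes a myopathy in humans, had an exact match of 3 exons and a variant with an additional first exon of 144 bases that began 765 bases further upstream. DNAJB2, which binds ubiquitin, had a variant of 7 exons. DNAJB5 was covered by 481 bases in 3 exons, the least of the list, while all transcripts of its locus, those of other classes included, covered 5394 bases.

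The DNAJC genes share little beyond the J domain, and their structures varied most. DNAJC13, an endosomal protein, was the longest, with 7641 bases of exon in pieces of 18 or 19 exons upstream and 36 exons downstream. DNAJC10, a disulfide reductase of the endoplasmic reticulum, had 21 exons, and DNAJC6, the clathrin-uncoating auxilin, 18. DNAJC7, which carries tetratricopeptide repeats and binds both HSP70 and HSP90, had an exact match of 13 exons and 7174 bases. DNAJC3, an inhibitor of translational stress signalling and a chaperone of the endoplasmic reticulum, had an exact match of 11 exons and 5218 bases. DNAJC5, the cysteine string protein of secretory vesicles, had an exact match of 5 exons. DNAJC15, of the mitochondrial import machinery, was among the smallest with 610 bases. DNAJC1, of the endoplasmic reticulum, and DNAJC11, of the mitochondrial outer membrane, had no exact match and 2 variants each. In DNAJC1 the variants differed by 2 adjacent exons of 166 and 98 bases, and the exon after them measured 94 bases in the variant that held them and 92 in the other. In DNAJC11 both variants skipped a run of 5 exons, 594 bases together, that a contained fragment included.

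The remaining DNAJC genes were described by counts. DNAJC8, DNAJC9, DNAJC16, DNAJC18, DNAJC24 and DNAJC27 had an exact match, as did DNAJC10, and DNAJC2, DNAJC6, DNAJC13, DNAJC17 and DNAJC21 did not. Over the whole list the largest exon number of any transcript of a gene had a median of 7 (range 1 to 36), against 6 in the other named genes. The median exon length was 2321 bases (range 481 to 7641), against 2101. The median span in the genome was 10520 bases, against 10980. By family, the median of that number was 8.5 for HSPA, 10.5 for DNAJC, 7 for DNAJA and for DNAJB, 3 for HSPB and 2.5 for BAG.

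**Figure D2:**
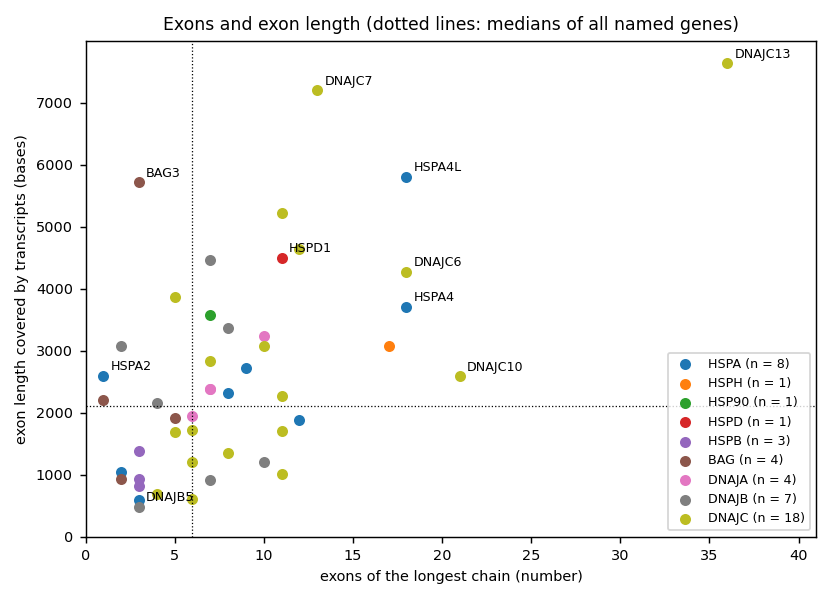
Largest exon number of any qualifying transcript (horizontal axis) against the exon length covered by all qualifying transcripts in bases (vertical axis) for the 47 genes, coloured by family. Dotted lines mark the medians of all named genes, 6 exons and 2102 bases; DNAJC13 lies farthest out with 36 exons, and BAG3 has 5714 bases in 3 exons.

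Splicing differences were sought between the qualifying transcripts of the same gene: a cassette exon, another donor or acceptor site where the other end of the intron was shared, a retained intron, or an intron of the same length moved by up to 10 bases. They were present in 12 of the 47 genes (25.5%), against 21.1% of the other named genes. Among genes with 2 or more transcripts it was 12 of 24, against 37.7%. Without the transcripts credited to normal replicate 1, 2 genes kept such a difference. The same count for the other named genes is not given here, so whether this fall is particular to the list stays unknown. Runs of 2 or more skipped exons, as in DNAJC1 and DNAJC11, were not counted. Nor was a skipped exon beside a changed splice site, such as that of 111 bases in DNAJA3. Cassette exons were present in HSPH1, DNAJA3, DNAJA4 and DNAJC18, the last with an exon of 110 bases at 1772314 to 1772423 on chromosome 15. Of these 4 exons, that of HSPH1 had a length divisible by 3, whereas over all named genes 63.1% of 745 cassette exons did.

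All 4 differences in donor or acceptor sites of that kind were multiples of 3: 51 bases in BAG3, 9 in HSPA4, and 3 each in DNAJC16 and DNAJC21. Over all named genes this held for 65.8% of 754 such differences. Sites that changed together with a skipped exon were outside this kind. They made an exon of 133 or 129 bases in DNAJA3 and of 94 or 92 in DNAJC1, and neither difference is a multiple of 3. In DNAJC11 both variants began the exon after the skipped run at 529418 on chromosome 23. A contained fragment started in that exon at 529414, so its acceptor site there was not assembled, and the frame across the skip stays unknown. Retained introns were present in HSPA8 (95 bases) and DNAJC13 (77 bases), and moved introns in HSPA8 (by 2 bases), DNAJB14 and DNAJC10 (by 4 bases each). In the last kind the intron keeps its length while both ends move by the same few bases, and the bases at these junctions were not examined because no genome sequence was used.

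**Figure D3:**
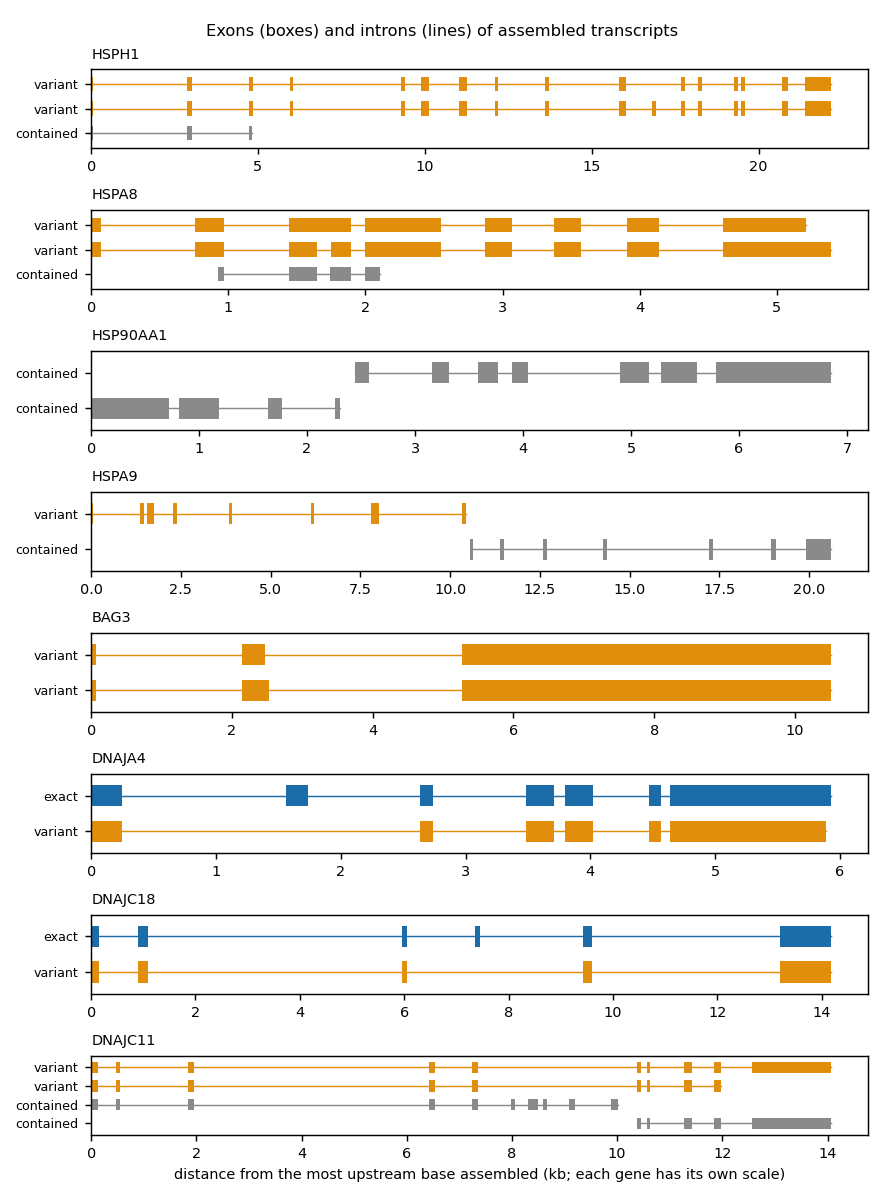
Exons (boxes) and introns (lines) of the qualifying transcripts of 8 genes, drawn 5′ to 3′ by distance in kb from the most upstream assembled base, with a separate scale for each gene and the class of each transcript at the left. HSPH1, DNAJA4 and DNAJC18 show 1 skipped exon, HSPA8 a kept intron of 95 bases, BAG3 a second exon longer by 51 bases, DNAJC11 a run of 5 exons in 1 fragment, and HSP90AA1 and HSPA9 pieces that do not overlap.

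In 7 genes (14.9%, against 18.7% of the others) the transcripts fell into pieces with no overlap. For 4 genes (8.51%, against 10.5% of the others) this held without the transcripts credited to normal replicate 1. The gaps were 103 bases in HSPA9, 121 in DNAJC6, 136 in HSP90AA1, 510 in DNAJC9, 739 in DNAJC2 and 1946 in DNAJC13, while DNAJC21 was in 3 pieces with gaps of 1365 and 960 bases. The pieces followed the same reference transcript in each of these genes except DNAJC9, where they followed 2.

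The names of 11 genes (23.4%, against 13.6% of the others) were also given to transcripts on the opposite strand that overlap their exons. There were 33 of them, of which 26 had a single exon and 27 touched a single exon of the gene. Their lengths ran from 76 to 3066 bases with a median of 264, and a median of 95.7% of their bases lay on exons of the gene. Without those credited to normal replicate 1, 19 transcripts on 7 genes (14.9%, against 10.6% of the others) were left, and none of them lay on DNAJA1, DNAJB4, DNAJB9 or HSPA8. HSPA4 carried 7, DNAJC9 5, HSPA8 and DNAJC3 4 each, DNAJB14 3, BAG2, DNAJA1, DNAJB4 and HSPD1 2 each, and DNAJB9 and DNAJC2 1 each. The 4 on HSPA8 measured 208 to 304 bases, and each touched 1 exon.

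Of the 33, 5 had the class for an intron that overlaps a reference intron on the other strand, in DNAJB4, DNAJB9, DNAJC3, DNAJC9 and HSPA4. In each of these 5 the intron had the same length as the intron of the gene, 1542, 2022, 931, 781 and 434 bases. They lay 4, 5, 8, 4 and 2 bases away. A spliced transcript on DNAJB14 lacked that class, although its intron of 1163 bases overlapped an intron of the gene of 1176 bases. The opposite-strand transcript of DNAJB9 followed its gene over both exons, with 99.8% of its 3066 bases on them. In the whole annotation 476 of 556 transcripts of that class (85.6%) had an intron of the other strand moved by at most 10 bases. The strand protocol of the libraries was not given in the sources used here, and without it reads of a gene and of a transcript on its opposite strand cannot be told apart.

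**Figure D4:**
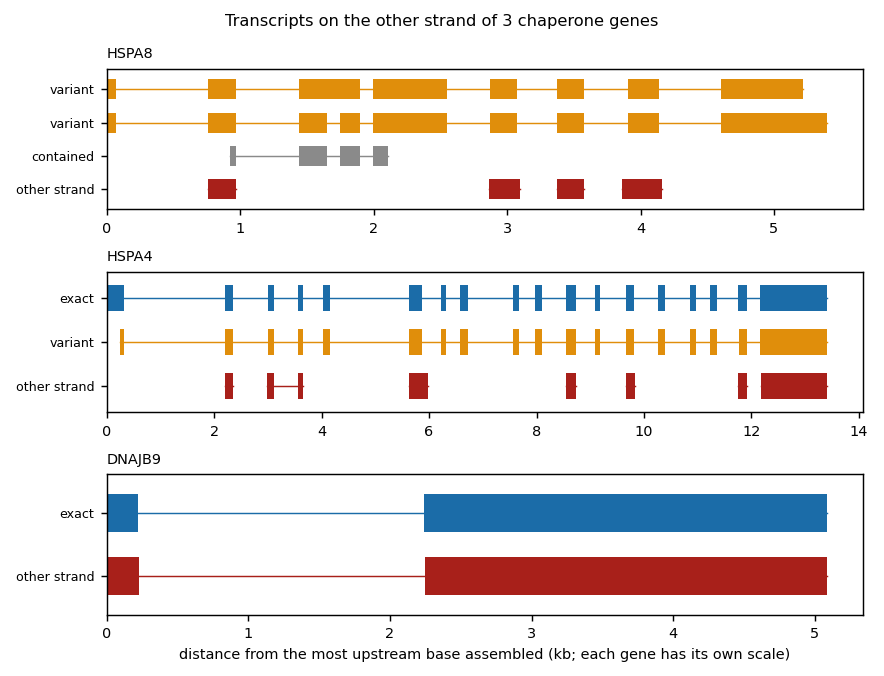
Qualifying transcripts of HSPA8, HSPA4 and DNAJB9 with the opposite-strand transcripts that bear the gene's name (red), drawn along the gene by distance in kb from its most upstream assembled base. The red boxes overlap exons of the gene, and some reach into introns. In DNAJB9 the outer ends are the same on both strands, and the intron of 2022 bases recurs 5 bases away.

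Exons of 6 of the 47 genes overlapped exons of a differently named gene on the opposite strand. The share over all named genes is not given here, so the count describes these genes alone. HSPD1 shared 3410 of its 4501 exon bases (75.8%) with COQ10B, and DNAJA1 shared 908 bases (46.5%) with APTX. DNAJA3 shared 27.3% with NMRAL1, DNAJC7 22.9% with CNP, DNAJC2 19.4% with PMPCB and DNAJC9 14.8% with FAM149B1. Any count per locus for these 6 genes would depend on how reads of the shared bases were assigned. HSP70, HSP90 and J-protein genes also have close relatives, and the labels do not state how reads that fit several genes were treated.

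Chromosomes that held a member numbered 22, with 7 members on chromosome 1, 5 on chromosome 5 and 4 on chromosome 8. HSP90AA1, BAG5 and HSPA2 lay in this order on the minus strand of chromosome 5, separated by 926 kb with 12 other named genes between and by 2723 kb with 14. On chromosome 15, DNAJC18 and HSPA9 were 332 kb apart with 3 named genes between.

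The annotation credits each merged transcript to the assembly of 1 sample, which is no measure of abundance, since a transcript found in several samples is credited once. Of the members' transcripts, 55 were credited to normal replicate 1, and 7, 11 and 4 to normal replicates 2, 3 and 4. PSE replicates 1, 2, 3 and 4 were credited with 5, 2, 1 and 0. Over all named genes the credited transcripts numbered 7861, 3449, 1819 and 1143 for normal replicates 1 to 4 and 852, 472, 290 and 42 for PSE replicates 1 to 4, so they fell at every step of the sample numbers 1 to 8 in the labels. The members' numbers followed this order except for normal replicate 3 and PSE replicate 1, each above the sample before it. The normal samples hold the first 4 of these numbers, so group and place in that order cannot be told apart in the credit. The normal samples together held 77 of 85 (90.6%), against 89.6% of 15928 transcripts of all named genes. The exact 95% binomial interval of 82.3 to 95.9 covers counting error only. It takes the transcripts as independent, though several share a gene, and measures no spread between samples. Without normal replicate 1 the normal samples held 73.3%, against 79.5% over all named genes. Members with a transcript credited to PSE muscle were 6: DNAJB5, DNAJB14, DNAJC6, DNAJC11, HSPA4 and HSPH1. The share of all named genes with such a transcript is not given here, so this count ties none of the 6 to PSE muscle. The single transcript of DNAJB5 was credited to PSE replicate 1, and the exact match among the PSE-credited transcripts was that of HSPA4.

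**Figure D5:**
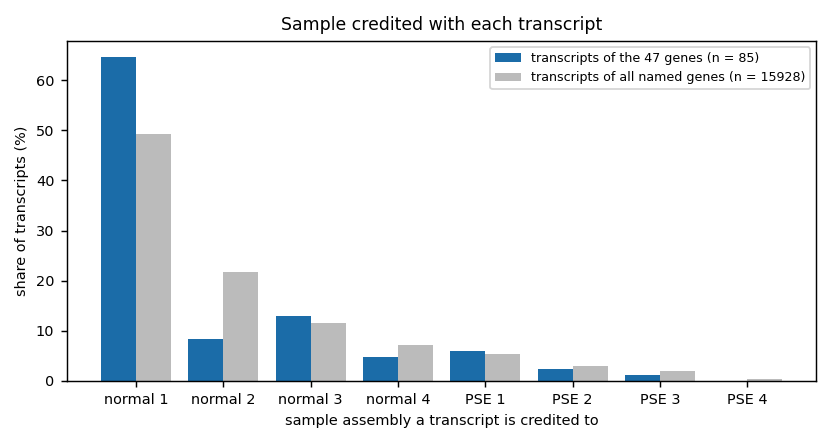
Share of transcripts in percent (vertical axis) credited to each of the 8 sample assemblies, for the 85 transcripts of the 47 genes and for the 15928 transcripts of all named genes. Normal replicate 1 holds 64.7% of the members' transcripts and 49.4% of all, and PSE replicate 4 holds 0 and 0.264%.

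Of cell type markers looked up by name, 10 of 14 for skeletal muscle were assembled. Among these were ACTN2, TNNI2, NEB and MYOZ1, while CKM, MYBPC2, TNNT3 and MYLPF were not assembled. Markers of macrophages were assembled in 5 of 5, of fibroblasts in 5 of 6, of endothelium in 3 of 4 and of adipocytes in 2 of 3. Neither erythrocyte nor nerve and Schwann cell markers were found, 0 of 4 each. A name found or missing measures no RNA level, and whether the reference holds each symbol is not given here. These counts therefore establish neither the tissue nor the absence of a cell type. The part of each cell type in the chaperone transcripts was not tested.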

How the data were processed

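Messenger RNA of 4 normal and 4 PSE breast muscle samples was sequenced on an Illumina GAIIx, 2 libraries per lane, from 10 µg of total RNA whose integrity number reached at least 8, per the labels. The submitters' processing notes list TopHat, Cufflinks, HTSeq and DESeq, with neither version nor role. Genome build, reference annotation, read length and strand protocol: not given in the sources used here.

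As deposited by the authors, the annotation has 162644 exon lines, 41982 transcripts and 23108 loci, and gives each transcript a class against a reference transcript, per its own fields. The 8 columns of the authors' deposited counts per locus carry no names, and columns that no name ties to a sample were left out of every step. The planned comparison of PSE with normal muscle was not made, expression levels and covariation are not reported, and no test between groups was run. Dixon's ratio was computed for the numbers of transcripts credited to the samples of each group.

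Transcripts were read with Python 3.11.15, NumPy 2.4.6 and SciPy 1.17.1. Exact, contained and variant classes qualified; exon lengths are unions of their exons. The search for splicing differences was tested on simulated exon chains. Names, but no coordinates, were compared with RefSeq for assembly Turkey_5.1. Coordinates are 1-based as deposited. Samples were named from the assembly prefix of each transcript, matched to the sample titles. All heat shock, chaperonin, BAG and DNAJA members are named, and of the others those with the most transcripts or exons, those without an exact match and those known from muscle or the endoplasmic reticulum. Genes outside that rule, such as those with a splicing difference, were named after their values were seen. Members and lists were chosen with earlier results of these data known.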

Additional observations from a re-analysis of the deposited data

Results flagged for a closer look

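Among the 4 normal samples, replicate 1 stood far from the others in the credit for the members' transcripts. It was credited with 55 transcripts of the 47 genes, against 4 to 11 in the other normal samples, and the gap to the nearest of them was 0.863 of the range, above Dixon's 95% critical value for 4 samples. It was also credited with a transcript of 40 of the 47 genes, against 4 to 8, and there the gap was 0.889 of the range. Such a value is passed by chance in about 1 of 20 groups. Over all named genes the same sample held 49.4% of the transcripts, and the credited transcripts fell at every step from sample number 1 (7861) to sample number 8 (42) in the labels. Replicate 1 is sample number 1, and Dixon's ratio takes the 4 samples as interchangeable, whereas these numbers follow the order of the labels. The part of library depth in it was not tested.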

How the results depend on the processing

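With only exact matches accepted, the list fell from 47 to 25 genes, with 3 HSPA, 0 HSPH, 0 HSP90, 1 HSPB, 2 DNAJA, 4 DNAJB and 11 DNAJC genes; HSPD and BAG counts moved by less than 1.5 times. With other same-strand overlaps, or every class, it held 48 genes (DNAJC28 added), and with transcripts of 2 or more exons 45 (BAG5 and HSPA2 lost). When the transcripts credited to each sample were left out in turn, 21 to 47 genes were assembled, 10 to 25 had a variant, 7 to 25 an exact match, 4 to 7 fell into pieces, 7 to 11 had opposite-strand transcripts (19 to 33 of these), 2 to 12 had a splicing difference and 73.3% to 96.25% of transcripts were credited to normal samples. Each of the lowest values was the one without normal replicate 1, and the highest share was that without PSE replicate 1. By construction fewer transcripts remain, and a transcript found in several samples is lost with the 1 sample credited. Apart from those for variants and credit, these settings were chosen after seeing the data. The median exon length was 2585 bases in place of 2321 when every transcript of a locus was counted, with DNAJB5 longer by 11.2 times. With transcripts of no class added (also chosen after seeing the data), 14 genes had a splicing difference. No paired analysis was possible because the count columns carry no sample names. The alternatives that need counts, and the search for heat shock elements in promoters, which needs sequence, were not run. Depth per sample is unknown here, so a gene without a transcript may lie below detection.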

Other observations

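Other genes of the chaperone machinery were looked up by name in the same annotation, from a list of 61 that was chosen with earlier results of these data known. Of these, 41 were assembled, and the usual rate for a list of names is not given here. An exact match was found for 22 of the 41 (53.7%), against 38.7% of all named genes. A variant was found for 17 (41.5%), against 52.0% of all named genes. The cytosolic chaperonin (TCP1 and CCT genes) had 5 of 8 subunits and prefoldin 5 of 6. Of the heat shock transcription factors HSF2 was assembled, 1 of 5. Of those not assembled, HSF1 and HSF3 have no RefSeq symbol, whereas HSF4 and HSF5 have one. The myosin chaperones UNC45A and UNC45B and the muscle methyltransferase SMYD1 were assembled with 18, 19 and 10 exons, and the small heat shock protein CRYAB as an exact match of 3 exons. Of the 20 genes not assembled, 14 have a RefSeq symbol, among them CCT2, CCT5, CDC37 and SYNPO2.

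Single-exon transcripts of exactly 55 bases were both the shortest and the most frequent length in the annotation, 810 of 20119, while the next most frequent length, 112 bases, occurred 63 times. Of the 810, 677 lay inside introns. Names of DNAJC2, DNAJC3, DNAJC9 and HSPD1 were on 5 of them, all intronic and all on the opposite strand.

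The name DNAJC7 was also on 14 intronic transcripts, and HSPA9 on 4 intronic transcripts and 1 overlapping one, at loci other than the gene's own. They lay outside the assembled span of the gene described above, and were classed against another reference transcript than its qualifying transcripts.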
